A study of Mus musculus with 2 samples.

Results

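The genes that set the G1 step of the cell cycle were followed in 63.3 mouse AML cells, a mouse acute myeloid leukemia line. The 10 genes were taken by name from 54736 genes in the spliced count matrix: the D-type cyclins Ccnd1, Ccnd2 and Ccnd3, the E-type cyclins Ccne1 and Ccne2, the kinases Cdk4 and Cdk6, and the CDK inhibitors Cdkn1b, Cdkn2c and Cdkn2d. All 10 were found. The rule that names them uses no measured value, but the genes were chosen with earlier results of these data known.

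The line was kept in medium with 0.5 µM beta-estradiol and with stem cell factor from conditioned medium, and estradiol is the agent whose removal is studied. In the brequinar series, cultures received 2 µM brequinar, an inhibitor of the pyrimidine synthesis enzyme DHODH, for 6, 12, 24 or 48 h. The growth medium given for the line contains estradiol, but whether it was present during brequinar treatment is not stated separately. In the withdrawal series, cells were washed with PBS and held in medium without estrogen for 6, 12, 24 or 48 h, and each series had its own 0 h culture. Every culture carried its own lipid-anchored DNA barcode (MULTI-seq), and all were pooled and read on the 10x Genomics platform.

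That gave 10 conditions with 1 culture each, so there was no replicate, no test and no p-value for a condition. Whether solvent was given to the 0 h culture of the brequinar series is not stated, and no untreated culture was sampled at a later time. Intervals in the text are 95% intervals for counting error only. They say nothing of how far 2 cultures of 1 condition would differ. The conditions held 528 to 1536 cells (12540 in all) and 5236694 to 19931921 unique molecular identifiers (UMIs). The median UMIs per cell were 14849 and 15229 at 0 h, against 9782 after 48 h of brequinar and 6509 after 48 h without estrogen. Mitochondria-rich cells (10% or more mitochondrial UMIs) made up 1.70% to 22.7% of a condition. All 8 markers of myeloid progenitors stood at 20 CPM (UMIs of the gene per 1000000 UMIs of the condition) or more in both 0 h cultures, while the summed erythroid and T lineage markers stayed at 9.45 CPM or less in every condition. Maturing neutrophil markers summed to 293 to 1504 CPM in 9 conditions and to 50824 CPM at 48 h of withdrawal. The monocyte and macrophage list ranged from 16.9 to 391 CPM, the megakaryocyte list from 15.0 to 130.4 CPM and the B lineage list from 51.8 to 179 CPM. The summed eosinophil, mast cell and basophil markers also differed, with 1112 and 1085 CPM in the 0 h cultures. The sums were 12379 CPM after 48 h of brequinar and 7839 CPM after 48 h without estrogen. Prg2 made up most of both, with 9165 and 7519 CPM. At 48 h of withdrawal Epx was higher than at 0 h too, but Cpa3, Mcpt8, Ms4a2 and Gata2 were lower. At 48 h of brequinar only Mcpt8 of this list was lower, at 13.6 against 55.7 CPM. The part of these differences in the members' values was not tested.

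D-type cyclins bind and activate CDK4 and CDK6, and the complexes phosphorylate the retinoblastoma protein RB. Phosphorylated RB releases E2F transcription factors, which drive genes for DNA replication and the E-type cyclins. Cyclin E then activates CDK2 for entry into S phase. INK4 inhibitors (here Cdkn2c, encoding p18, and Cdkn2d, encoding p19Ink4d) block CDK4 and CDK6, whereas p27, the product of Cdkn1b, acts mainly on CDK2 complexes. In blood cell precursors, leaving this cycle goes with terminal maturation.

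Promoters are shown for 3 genes with unlike courses: Ccne1, which had a single peak, and the INK4 genes Cdkn2c and Cdkn2d, which were high together at 24 h of brequinar. The sequences are those of RefSeq on GRCm38.p6, the 250 bases before the start site, 5′ to 3′ on the gene's own strand, and capitals mark the hexamer TCCCGC or its complement GCGGGA. That hexamer is the end of the E2F octamer TTTCCCGC and was chosen after the promoters had been seen.
Ccne1, chr7:38107491-38107740, minus strand: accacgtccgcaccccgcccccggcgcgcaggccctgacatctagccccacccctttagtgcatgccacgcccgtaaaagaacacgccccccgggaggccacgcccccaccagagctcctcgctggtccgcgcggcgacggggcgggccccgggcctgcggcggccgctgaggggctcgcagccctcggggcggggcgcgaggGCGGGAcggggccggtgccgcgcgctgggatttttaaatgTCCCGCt
Cdkn2c, chr4:109666757-109667006, minus strand, first of 2 entries: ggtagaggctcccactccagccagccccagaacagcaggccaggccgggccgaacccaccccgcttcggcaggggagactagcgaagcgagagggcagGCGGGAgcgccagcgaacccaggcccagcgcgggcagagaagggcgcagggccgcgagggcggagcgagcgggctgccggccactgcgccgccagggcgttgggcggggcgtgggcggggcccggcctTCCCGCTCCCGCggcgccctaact
Cdkn2d, chr9:21291210-21291459, minus strand: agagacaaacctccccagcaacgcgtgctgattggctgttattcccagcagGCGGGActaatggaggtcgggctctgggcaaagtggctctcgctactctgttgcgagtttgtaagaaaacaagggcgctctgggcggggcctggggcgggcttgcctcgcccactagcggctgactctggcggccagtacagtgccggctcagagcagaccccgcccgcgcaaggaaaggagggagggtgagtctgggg
The Ccne1 window held 2 copies of the hexamer, the nearer one starting 7 bases before the start site. Cdkn2c held 3 copies, of which 2 adjoin, and Cdkn2d held 1. The promoter table had entries for 7 of the 10 genes (not for Ccnd1, Ccnd2 and Ccne2). The hexamer stood in the upstream window of 4 of them (Cdk6 is the other) and of 16.9% of all 32851 promoters. The members are counted by gene and the background by promoter entry, and Ccnd3 and Cdkn2c have 2 entries each. The second Cdkn2c entry held no copy. Because the hexamer was chosen from these promoters, its share among them is no support for enrichment. The 4 full octamers TTTCCCGC, TTTGGCGC, TTTCGCGC and TTTGCCGC were in none of the 7 genes' windows on either strand and in 2.26% of all promoters (windows of 300 bases). A match is a stretch of letters and does not show binding, and no match says only that these letters are not in this window.

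Values below are spliced UMIs summed over the cells of a condition and given as CPM. A gene counts as measured in a comparison where either culture reached 20 CPM, and as higher or lower where the CPM differed at least 1.5-fold. The 0 h cultures of the series gave the one pair of like cultures: none of the 6 measured members differed between them, and 0.0546% of all 5490 measured genes did. The largest gap among those 6 was Cdkn2c, 1.07-fold (0.966 to 1.19).

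**Figure D1:**
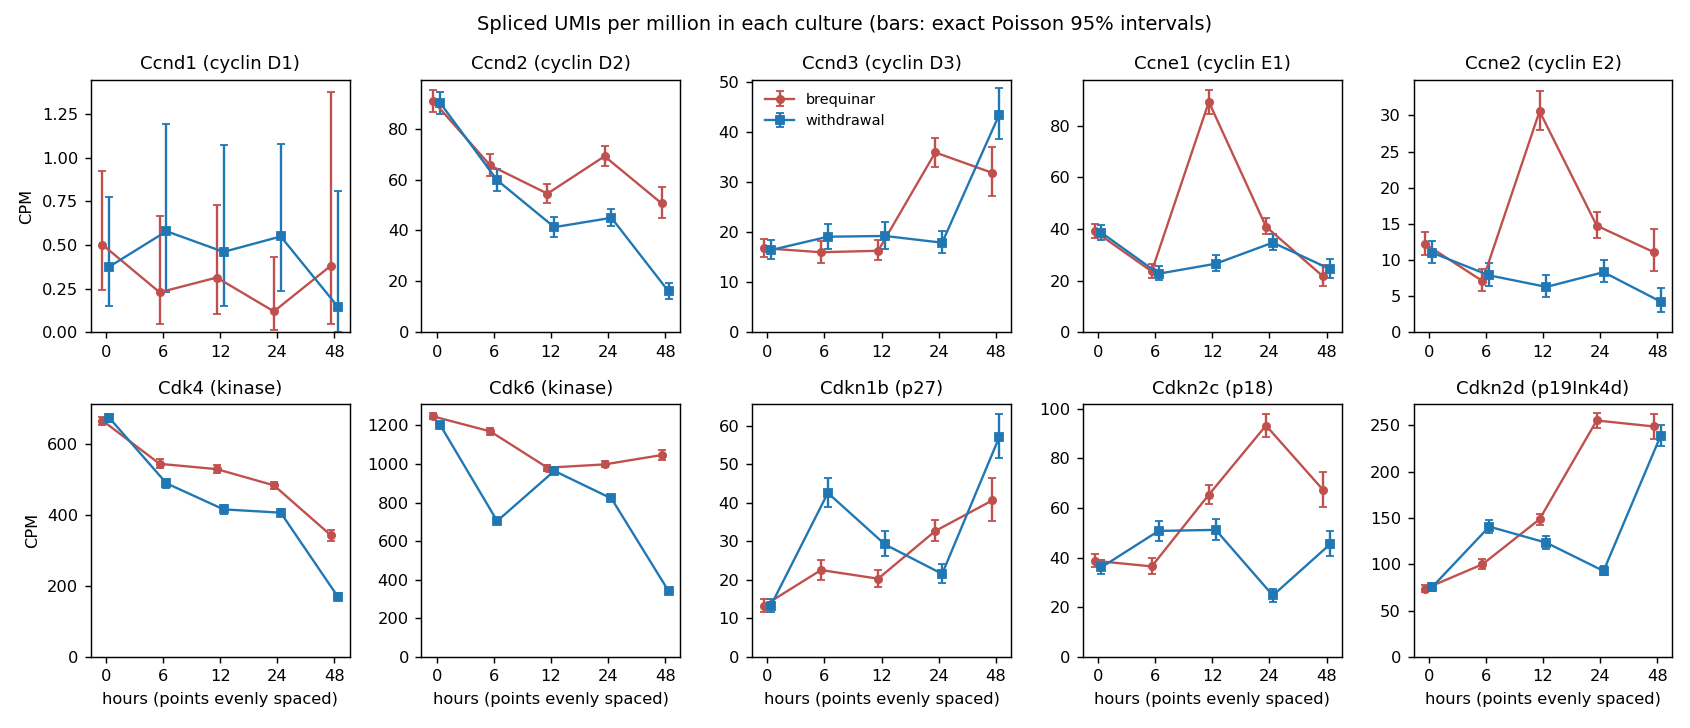
CPM of each member (vertical axes, from 0) at 0, 6, 12, 24 and 48 h (horizontal axes) in the brequinar series (circles) and the withdrawal series (squares); points are single cultures and bars exact Poisson 95% intervals. Ccne1 and Ccne2 peak at 12 h of brequinar (89.3 and 30.6 CPM), Cdkn2c and Cdkn2d are highest at 24 h of brequinar (93.2 and 255 CPM), and Cdk4, Cdk6 and Ccnd2 are lowest at 48 h of withdrawal.

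The 3 D-type cyclins had 3 different courses. Ccnd1 was near the detection limit, with 50 UMIs in the whole data set and 0.119 to 0.579 CPM, and was not measured in any comparison. Ccnd2 stood below 0 h at every later time, in CPM by less than 1.5-fold at 6 h (1.39) and 24 h (1.31) of brequinar. Ccnd3 stood higher late in both series.

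In the brequinar series Ccnd2 stood at 90.9, 65.5, 54.5, 69.2 and 50.6 CPM at 0, 6, 12, 24 and 48 h. In the withdrawal series it stood at 90.2, 59.7, 41.3, 45.0 and 16.0 CPM. All 8 later cultures lay below both 0 h cultures. At 48 h the level was 1.80-fold lower than at 0 h after brequinar (1.58 to 2.05) and 5.63-fold lower after withdrawal (4.64 to 6.89). The brequinar culture was 3.16-fold above the withdrawal culture at 48 h (2.52 to 3.98). At 24 h it was 1.54-fold above it (1.40 to 1.70), but 3 of 7 alternatives gave 1.23 to 1.48. The 6 h withdrawal level, 1.51-fold lower than 0 h (1.38 to 1.65), also lost its call under 3 alternatives, with ratios of 0.684 to 0.720. In the brequinar series, median-of-ratios scaling added calls at 6 h (0.657) and 24 h (0.643). The calls at 12 h (0.901) and 48 h (0.714) of brequinar were lost in the G1-like class alone, described below.

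Ccnd3 stood at 16.8, 16.0, 16.3, 36.0 and 31.9 CPM over the brequinar series. Over the withdrawal series it stood at 16.4, 19.1, 19.3, 17.9 and 43.6 CPM. It was thus flat through 12 h in both, and the brequinar culture was already high at 24 h, when the withdrawal culture was not. Against 0 h, the ratio was 2.14 (1.87 to 2.45) at 24 h and 1.90 (1.57 to 2.29) at 48 h of brequinar, and 2.65 (2.25 to 3.12) at 48 h of withdrawal. Brequinar stood 2.01-fold above withdrawal at 24 h (1.73 to 2.33). The maturing neutrophil markers of the 24 h brequinar culture summed to 486 CPM, far from the 50824 CPM at 48 h of withdrawal. Its monocyte and macrophage markers summed to 176 CPM, against 17.6 CPM at 0 h, and their part was not tested.

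The E-type cyclins, which act at the entry into S phase, had 1 peak, at 12 h of brequinar. Ccne1 stood at 39.2, 23.5, 89.3, 40.9 and 21.6 CPM in the brequinar series. Withdrawal gave 38.5, 22.7, 26.5, 34.7 and 24.5 CPM. Every culture other than that at 12 h of brequinar lay between 21.6 and 40.9 CPM. The 12 h brequinar culture was 2.28-fold above its 0 h culture (2.09 to 2.49) and 3.37-fold above the 12 h withdrawal culture (2.96 to 3.83). Between 0 and 6 h both series gave nearly the same lower level, 1.66-fold lower with brequinar (1.46 to 1.90) and 1.70-fold lower with withdrawal (1.48 to 1.96). The withdrawal call was lost (0.668) with class weighting, which sets the cell cycle classes described below to their 0 h shares. At 48 h Ccne1 was 1.82-fold lower with brequinar (1.49 to 2.23) and 1.57-fold lower with withdrawal (1.33 to 1.87), and the latter call was lost with median-of-ratios scaling (0.754).

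Ccne2 also peaked at 12 h of brequinar, and reached 20 CPM in that culture alone of the 10. Its levels were 12.2, 7.09, 30.6, 14.7 and 11.1 CPM with brequinar. With withdrawal they were 11.0, 7.86, 6.27, 8.31 and 4.23 CPM. At 12 h the brequinar culture was 4.88-fold above the withdrawal culture (3.78 to 6.39) and 2.51-fold above 0 h. The withdrawal level at 48 h rested on 29 UMIs.

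Of the G1 kinase genes, Cdk4 was lower at 48 h in both series. It was also lower at 12 h (1.62-fold, 1.57 to 1.68) and 24 h (1.66-fold, 1.61 to 1.71) of withdrawal. Median-of-ratios scaling added Cdk4 calls at 6 h of withdrawal (0.650) and 24 h of brequinar (0.614). Cdk6 was lower at 6 and 48 h of withdrawal and within 1.5-fold at every brequinar time in CPM. At 48 h the series differed more in Cdk6 than in Cdk4. Cdk4 stood at 666, 544, 529, 484 and 342 CPM with brequinar. Under withdrawal it stood at 674, 489, 416, 407 and 169 CPM. In CPM each culture lay below the one sampled before it, and from 6 h on the withdrawal culture was the lower at each time. Some steps were small: intervals overlapped at 12 and 24 h of withdrawal (404 to 428 and 396 to 417 CPM). They also overlapped at 6 and 12 h of brequinar (532 to 557 and 518 to 541 CPM). Median-of-ratios scaling moved the median log2 ratio of all genes to 0 h by -0.096 and 0.060 at 12 and 24 h of withdrawal. Between the series at 24 h it moved that median by -0.28. By 48 h Cdk4 was 1.95-fold lower (1.85 to 2.05) with brequinar and 3.98-fold lower (3.74 to 4.23) with withdrawal, in the culture whose neutrophil markers summed to 50824 CPM.

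Cdk6 kept most of its level under brequinar, with 1247, 1169, 981, 998 and 1046 CPM. Under withdrawal it stood at 1204, 704, 964, 821 and 341 CPM. The withdrawal course had a dip at 6 h, 1.71-fold below 0 h (1.67 to 1.75), a partial return at 12 h and the lowest level at 48 h, 3.53-fold below 0 h (3.38 to 3.69). At 48 h of brequinar the gene was 1.19-fold lower (1.16 to 1.23). Brequinar over withdrawal was 1.66 (1.62 to 1.71) at 6 h, 1.02 (0.992 to 1.04) at 12 h, 1.21 (1.19 to 1.24) at 24 h and 3.07 (2.92 to 3.22) at 48 h. The interval spanned 1 at 12 h and not at the other times, for single cultures and counting error only. Between the 0 h cultures it did not span 1 either, at 1.04 (1.02 to 1.05), so excluding 1 does not mark a series difference. These ratios also depend on the scaling. Median-of-ratios scaling moved the median log2 ratio of all genes between the series by -0.095 at 12 h and -0.28 at 24 h.

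The 3 inhibitor genes were higher than at 0 h at 1 or more times of the brequinar series, each with its own course. Cdkn1b stood at 13.3, 22.6, 20.3, 32.7 and 40.7 CPM with brequinar. Under withdrawal it stood at 13.3, 42.6, 29.2, 21.6 and 57.1 CPM. All 8 later cultures lay above both 0 h cultures and all passed 1.5-fold. The withdrawal course was high early and late and lower between, 3.21-fold (2.76 to 3.75) at 6 h and 4.31-fold (3.66 to 5.07) at 48 h, with 1.63-fold (1.37 to 1.93) between them at 24 h, which class weighting moved to 1.43. At 6 h brequinar lay 1.89-fold below withdrawal (1.63 to 2.19). The 12 h brequinar ratio, 1.53 (1.29 to 1.80), was 1.33 with median-of-ratios scaling. At 24 h brequinar lay 1.52-fold above withdrawal (1.32 to 1.75), but 4 of 7 alternatives gave 1.22 to 1.48 and the G1-like cells alone gave 0.381, with 5 UMIs in the brequinar class.

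Cdkn2c separated the series most at 24 h. Brequinar gave 38.7, 36.4, 65.3, 93.2 and 67.2 CPM. Withdrawal gave 36.1, 50.7, 51.1, 24.7 and 45.3 CPM. The 24 h withdrawal culture was the lowest of the 10 and the 24 h brequinar culture the highest. The brequinar ratio to 0 h was 1.69 (1.54 to 1.86) at 12 h and 1.47 with median-of-ratios scaling, then 2.41 (2.21 to 2.63) at 24 h. Under withdrawal no time passed 1.5-fold in CPM, but some did under alternatives: 24 h was lower with the other 0 h culture (0.639), with free RNA removed (0.664) and in the G1-like class alone (0.524), and class weighting gave 1.52, 1.66 and 1.93 at 6, 12 and 48 h. At 48 h the G1-like class alone gave 0.629. Brequinar over withdrawal at 24 h was 3.77 (3.36 to 4.24).

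Cdkn2d, counted by 18176 UMIs in all, was highest in 3 cultures, those at 24 and 48 h of brequinar and the last of withdrawal. Brequinar cultures held 73.6, 99.9, 149, 255 and 249 CPM. Withdrawal cultures held 75.4, 141, 123, 92.7 and 239 CPM. All 8 later cultures lay above both 0 h cultures. Each brequinar culture to 24 h lay above the one before it, and the last of these was 3.47-fold above 0 h (3.27 to 3.68). The withdrawal course was 1.87-fold (1.74 to 2.00) at 6 h, 1.23-fold (1.14 to 1.33) at 24 h and 3.17-fold (2.95 to 3.40) at 48 h. At 48 h the series did not differ beyond counting error in CPM, with a ratio of 1.04 (0.968 to 1.12). Median-of-ratios scaling moved the median log2 ratio of all genes in that comparison by -0.34, so this likeness depends on the scaling. At 24 h brequinar lay 2.75-fold above withdrawal (2.59 to 2.93).

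The counts of members per comparison are given beside those of all measured genes. At 6 h of brequinar, 1 of 7 measured members was higher (8.82% of all genes) and 1 lower (4.97%). At 12 h, 5 of 8 were higher (13.5%) and 1 lower (4.67%), with a median log2 ratio of 0.58 against 0.10 over all genes. At 24 h, 4 of 8 were higher (29.2%) and none of the 8 lower (13.8%), and at 48 h, 4 of 8 were higher (25.7%) and 3 lower (17.3%).

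In the withdrawal series, 2 of 7 members were higher (12.3% of all genes) and 3 lower (8.11%) at 6 h. At 12 h, 2 of 7 were higher (13.4%) and 2 lower (11.2%). At 24 h, 1 of 7 was higher (9.46%) and 2 lower (11.9%), and at 48 h, 3 of 8 were higher (21.5%) and 4 lower (40.7%). The 48 h withdrawal count of lower members thus stood near the share of all genes. Between the series, 2 of 7 members differed at 6 h (3.35% of all genes), 2 of 8 at 12 h (20.6%), 5 of 8 at 24 h (37.6%) and 3 of 8 at 48 h (46.2%). At 48 h all 3 were higher with brequinar: Ccnd2, Cdk4 and Cdk6. The median log2 ratio over all measured genes there was 0.34, and median-of-ratios scaling moved it by -0.34. That scaling gave 5 called members, adding Ccnd3 (0.561) and Cdkn1b (0.546), both lower with brequinar.

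**Figure D2:**
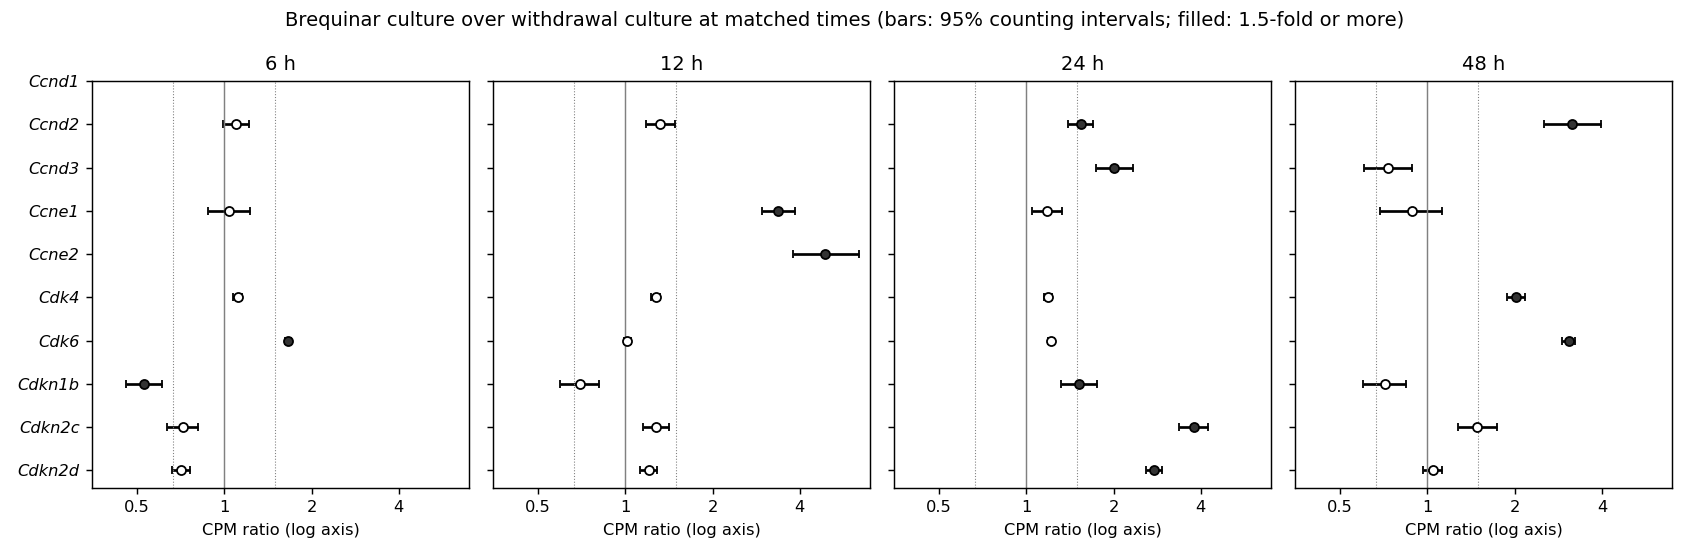
Ratio of CPM, brequinar culture over withdrawal culture (horizontal log axes), for each measured member at 6, 12, 24 and 48 h; bars are 95% counting intervals, filled points differ at least 1.5-fold and dotted lines mark that threshold. The E-type cyclins stand apart at 12 h (3.37 and 4.88), Cdkn2c and Cdkn2d at 24 h (3.77 and 2.75), and Ccnd2 and Cdk6 at 48 h (3.16 and 3.07).

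Cells were then divided by cell cycle scores, to see whether the pooled levels followed the makeup of a culture. Scores came from 41 S phase and 53 G2/M genes, none of them a member, in cells thinned to 2500 UMIs. A cell with neither score above 0 was called G1-like. These classes are ranges of a score and not cell types, and 5.05% to 19.9% of the cells of a condition lay within 0.05 of the boundary. The G1-like share was 4.43% and 3.92% at 0 h (58 and 46 cells). It was 25.1%, 3.85%, 2.72% and 19.6% at 6, 12, 24 and 48 h of brequinar and 22.1%, 32.0%, 18.7% and 61.7% under withdrawal. The G2/M class was 57.8% and 61.3% at 0 h and 87.0% at 24 h of brequinar.

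Within the 0 h cultures, the E-type cyclins were higher in the S class. The level of Ccne1 was 69.3 CPM in the S class and 21.5 CPM in the G2/M class of the brequinar 0 h culture, 3.23-fold lower in G2/M (2.77 to 3.77), and 3.77-fold lower (3.22 to 4.43) in the other 0 h culture. Ccne2 was 3.96-fold lower (2.96 to 5.33) and 2.88-fold lower (2.15 to 3.87). Cdkn2d had the opposite order, 1.86-fold (1.64 to 2.10) and 1.73-fold (1.53 to 1.97) higher in G2/M than in S. Cdkn2c was 1.78-fold (1.503 to 2.11) and 1.18-fold (0.997 to 1.40) higher in G2/M, so the 0 h cultures gave unlike ratios. Ccnd2, Cdk4 and Cdk6 differed by at most 1.12-fold between these classes.

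The high level of Ccne1 at 12 h of brequinar appeared in both the S and the G2/M class, names that come from scores alone and do not show that the cells were cycling. The class shares of that culture were close to those at 0 h: 39.8% S against 37.7%, and 56.3% G2/M against 57.8%. Ccne1 stood at 134 CPM in its S class, 1.93-fold above the 0 h S class (1.72 to 2.16), and at 67.0 CPM in its G2/M class, 3.12-fold above (2.69 to 3.63). Ccne2 was 2.16-fold (1.77 to 2.64) and 3.69-fold (2.79 to 4.94) above. The G1-like class showed no such peak: Ccne1 stood at 29.4 CPM against 34.3 CPM at 0 h, on 15 and 26 UMIs. At 24 h the S class still held 112 CPM of Ccne1, 1.62-fold above 0 h (1.36 to 1.92), and the G2/M class 33.4 CPM, 1.56-fold above (1.33 to 1.82). Class weighting moved the 24 h ratio of Ccne1 from 1.04 to 1.59 and that between the series from 1.18 to 1.65. For Ccne2 the S class stayed above its 0 h level after 12 h: it held 22.8 CPM at 0 h and 49.3, 46.3 and 54.9 CPM at 12, 24 and 48 h, the last on 16 UMIs.

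At 48 h Ccne1 was not 1.5-fold lower within the S and G2/M classes, and was so within the G1-like class. In the S class the ratio to 0 h was 1.14 (0.714 to 1.73) with brequinar and 1.45 (1.11 to 1.87) with withdrawal, and in the G2/M class 0.941 (0.726 to 1.21) and 1.38 (1.06 to 1.79). In the G1-like class it was lower: 5.67-fold with withdrawal (2.81 to 11.4; 5.69 against 32.3 CPM), where the class made up 61.7% of the cells, and 4.42-fold with brequinar (1.78 to 13.1), on 6 UMIs (19 with withdrawal). Weighting each class to its 0 h share gave ratios of 1.04 and 1.38 where the pooled ratios were 0.551 and 0.635. For Ccne1 the direction of the 48 h difference thus depends on how the classes are weighted.

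The lower kinase levels at 48 h of withdrawal were present in every class. Cdk4 at 48 h of withdrawal was 4.96-fold lower in G1-like cells (4.27 to 5.76), 2.59-fold lower in S (2.22 to 3.04) and 3.26-fold lower in G2/M cells (2.998 to 3.55). Cdk6 was 5.20-fold (4.65 to 5.83), 2.21-fold (1.98 to 2.48) and 2.64-fold lower (2.49 to 2.79). Cdk6 in the G1-like class of that culture stood at 199 CPM, against 508 CPM in S. Ccnd2 was lower by 4.49-fold in G1-like cells, 6.62-fold in S and 6.79-fold in G2/M cells. The intervals of its 48 h levels in these classes overlapped, at 14.8 to 24.5, 6.47 to 26.9 and 9.29 to 18.2 CPM. The S level rested on 9 UMIs and the G1-like level at 0 h on 48.

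Cdkn1b and Cdkn2d were higher within classes too. Cdkn1b at 48 h of withdrawal was 3.48-fold higher in the S class (2.15 to 5.48) and 3.77-fold higher in G2/M (3.002 to 4.73). In the G1-like class it stood at 61.4 CPM, where the 0 h class held 3 UMIs. Cdkn2d at 24 h of brequinar was 3.70-fold (2.43 to 5.71) higher in the G1-like class, 3.28-fold (2.79 to 3.86) in S and 2.97-fold (2.77 to 3.18) in G2/M. Cdkn2c at 48 h of withdrawal differed by class: 2.05-fold (1.74 to 2.42) higher in G2/M, 1.67-fold (1.13 to 2.40) higher in S and 0.629 times the 0 h level (0.336 to 1.26) in the G1-like class, against 1.26 (1.09 to 1.44) pooled.

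**Figure D3:**
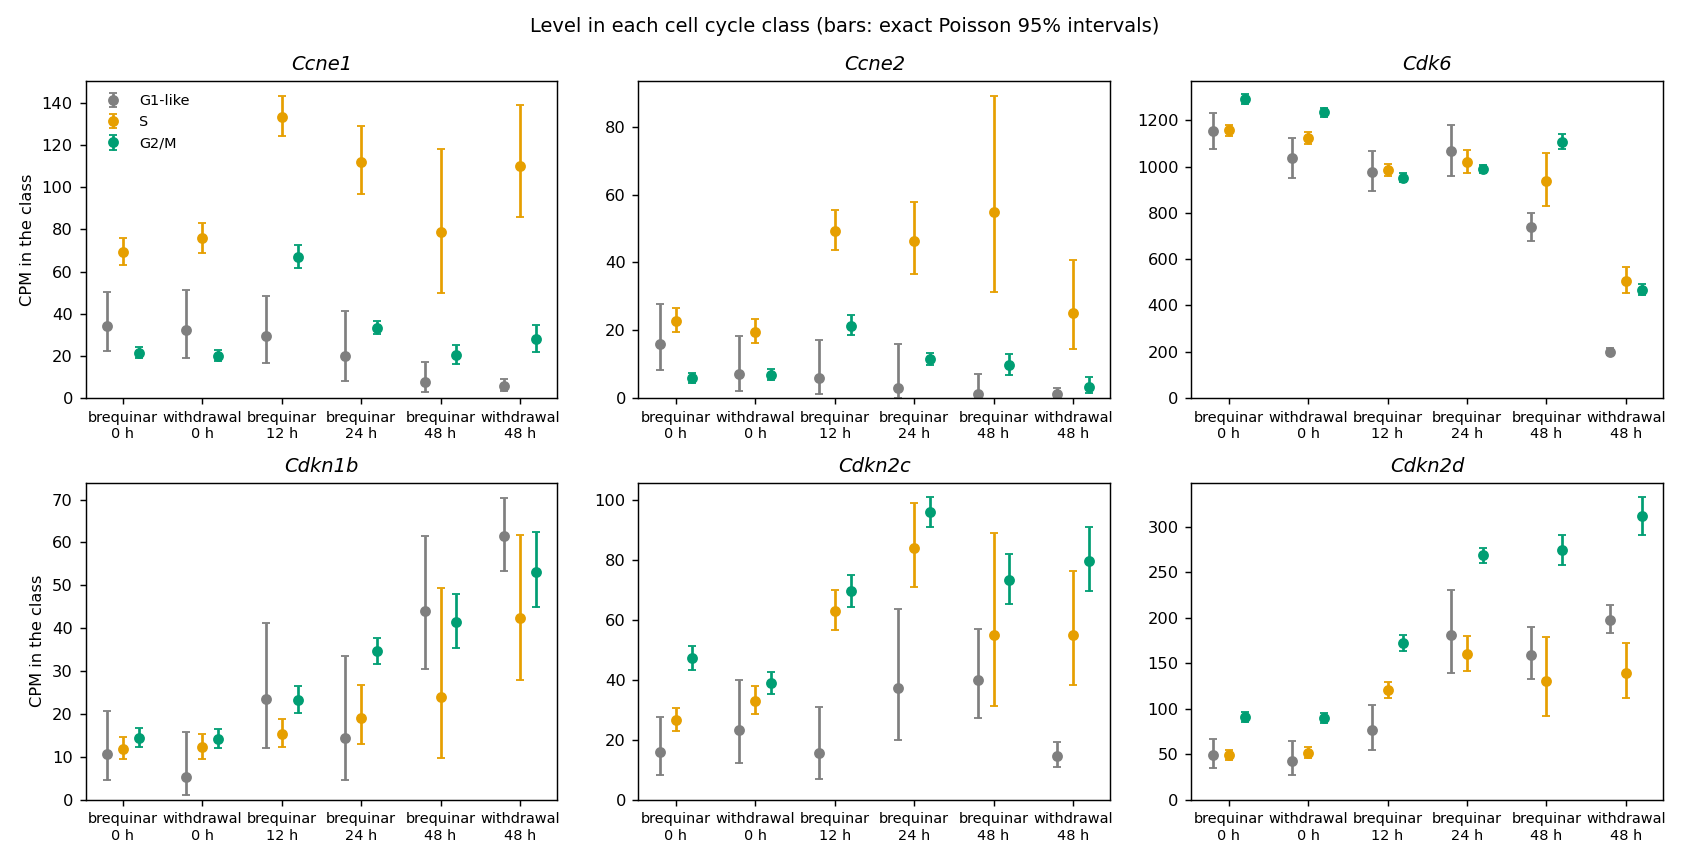
CPM (vertical axes, from 0) of 6 members in the G1-like (grey), S (orange) and G2/M (green) classes of 6 cultures (horizontal axes); bars are exact Poisson 95% intervals. At 12 h of brequinar Ccne1 is at 134 CPM in S and 67.0 CPM in G2/M against 69.3 and 21.5 CPM at 0 h, and at 48 h of withdrawal Cdk6 is at 199 CPM in the G1-like class.

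Depth per cell differed between conditions, so the share of cells with at least 1 UMI was taken after thinning each cell to 2500 UMIs, which kept 10949 cells. Cdk6 was found in 93.9% and 94.5% of cells at 0 h, 82.7% after 48 h of brequinar and 39.6% after 48 h without estrogen (98.1%, 98.5%, 95.3% and 61.2% unthinned). Cdk4 was found in 79.0% and 79.9% at 0 h, and in 54.0% and 27.6% at 48 h (88.2%, 90.1%, 87.7% and 52.6% unthinned). Cells with Ccne1 were 17.7% at 12 h of brequinar, against 8.25% at 0 h and 5.31% at 12 h of withdrawal (46.5%, 31.2% and 15.0% unthinned). Cdkn2d was found in 14.6% and 14.3% at 0 h, 46.2% at 24 h of brequinar and 43.5% after 48 h without estrogen (50.5%, 52.4%, 85.6% and 68.95% unthinned). Ccnd1 was found in at most 0.262% of thinned cells.

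All cells came from 1 line, so no cell type that should lack these genes was at hand as a background. Free RNA, taken from barcodes of 2 to 100 UMIs, held 430.8 CPM of Cdk4, 29.1 CPM of Ccne1 and 137 CPM of Cdkn2d. Removing 5% of each sum in that profile ended none of the 50 calls and added 2, Cdkn2c at 24 h of withdrawal (0.664) and Cdkn2c between the series at 48 h (1.51).

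**Figure D4:**
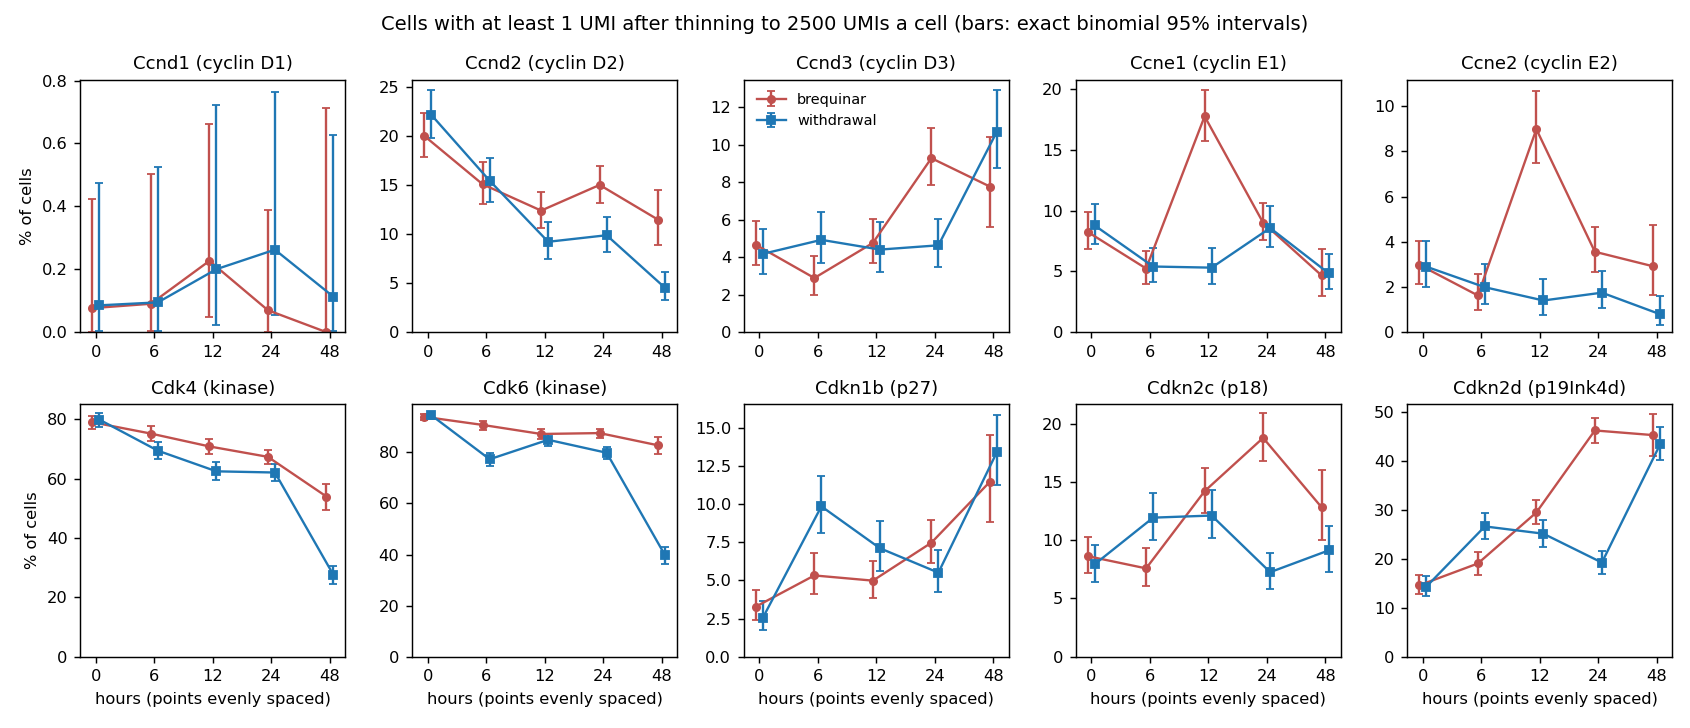
Share of cells with at least 1 UMI of each member (vertical axes, percent, from 0) at 0 to 48 h (horizontal axes) after thinning to 2500 UMIs a cell, brequinar circles and withdrawal squares; bars are exact binomial 95% intervals. The share with Cdk6 is 39.6% at 48 h of withdrawal against 82.7% at 48 h of brequinar, and that with Ccne1 peaks at 17.7%.

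Likeness between the courses of the members was described by Pearson's r of log2(CPM + 5) over 10 points that share the 0 h state and the pool. Ccnd2 and Cdk4 had an r of 0.96, Ccnd2 and Cdk6 0.89, Cdk4 and Cdk6 0.88, Ccne1 and Ccne2 0.88, and Ccnd3 and Cdkn2d 0.87. Cdk4 and Cdkn1b had an r of -0.82.
Among 4269 other genes that reached 50 CPM, those most like each member were named by rank. Ccne1 was nearest to Paxip1 (0.91), Trir and Rrm1, the large ribonucleotide reductase subunit gene. Ccne2 was nearest to the mitotic kinase gene Pbk (0.93), the gamma-tubulin gene Tubg1 and again Rrm1 (0.92). Rrm1 had its highest level at 12 h of brequinar, 231 CPM, against 176 CPM at 0 h.
Cdkn1b was nearest to the nuclear noncoding RNA Neat1 (0.96), Clk1, a splicing factor kinase gene, and Rit1. Neat1 stood at 82.2 CPM at 0 h and 720 CPM at 48 h of the brequinar series, against 70.5 and 1002 CPM under withdrawal. Cdkn2c was nearest to Tmem273 (0.99), the transcription factor gene Pou2f2 and the catalase gene Cat. Cdkn2d was nearest to Pnrc1 (0.98), Tm2d2 and Wdr26, and Ccnd3 to Pld4 (0.98), the ubiquitin ligase gene Cbl and Rhog. The kinases and Ccnd2 had other neighbours: Dhx36 (0.99), Cops4 and Snrnp40 for Cdk4, Rcn1 (0.97), Ubap2 and Bdp1 for Cdk6, and Hypk (0.97), Cenpv and Ddx47 for Ccnd2.

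The partners of the members were read from lists of the pathway. Of 13 genes of the RB and E2F family, 8 were measured at 12 h of brequinar and 2 were higher (13.5% of all measured genes), none of the 8 lower (4.67%). They were Tfdp2, an E2F dimer partner, at 2.02-fold (1.84 to 2.23), and E2f1, at 72.2 against 38.9 CPM, 1.86-fold (1.69 to 2.04). E2f1 was 2.11-fold above withdrawal at 12 h (1.87 to 2.37), the time of the cyclin E peak. At 6 h of withdrawal 2 of 9 were higher (12.3% of all genes) and 1 lower (8.11%): Rb1, the RB gene itself, stood at 22.2 against 5.15 CPM, 4.302-fold (3.395 to 5.49), Tfdp2 at 2.26-fold, and Tfdp1 was 1.82-fold lower (1.73 to 1.91). At 48 h of withdrawal 1 of 9 was higher (21.5% of all genes), E2f2 at 5.58-fold (4.299 to 7.30), and 5 lower (40.7%).

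Of 15 E2F targets of S phase entry, 12 were measured, and at 12 h of brequinar none of the 12 was called in either direction (13.5% of all genes were higher and 4.67% lower), while Ccne1 and Ccne2 were. The highest ratios of the 12 were those of the replication fork gene Cdc45 at 1.38-fold (1.27 to 1.51) and the thymidylate synthase gene Tyms at 1.26-fold (1.22 to 1.29). Against withdrawal at 12 h, 9 of the 12 were higher, where 805 of all 6086 measured genes were higher and 446 lower, led by Cdc45 at 2.28-fold and the ribonucleotide reductase gene Rrm2 at 2.17-fold. The 12 h withdrawal culture itself had 7 of 12 below its 0 h culture (11.2% of all genes) and none of the 12 higher (13.4%). Its median log2 ratio was -0.60, against 0.01 over all genes. At 48 h, 9 of 12 were lower with brequinar (17.3% of all genes; median log2 ratio -0.93, against 0.04 over all genes) and 11 of 12 with withdrawal (40.7%; -1.15 against -0.33). Tyms was 3.25-fold lower (3.02 to 3.502) with brequinar, and the helicase gene Mcm2 was 3.68-fold lower (3.19 to 4.28) with withdrawal.

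Of 14 other cyclins, CDKs and activators, 12 were measured at 12 h of brequinar, with 3 lower (4.67% of all genes) and none of the 12 higher (13.5%). The mitotic cyclin gene Ccnb2 stood at 106 against 204 CPM, 1.94-fold lower (1.83 to 2.05), and Ccnb1 was 1.63-fold lower (1.54 to 1.73), so B-type and E-type cyclins stood on opposite sides of their 0 h levels in that culture. The third was Cdk7, the CDK-activating kinase gene, 1.71-fold lower (1.56 to 1.87). At 48 h, 1 of 13 was higher with brequinar (25.7% of all genes), the phosphatase gene Cdc25b at 3.84-fold (3.20 to 4.60), and none of the 13 was lower (17.3%). At 48 h of withdrawal 9 of 13 were lower (40.7% of all genes) and none of the 13 higher (21.5%), with a median log2 ratio of -0.69 against -0.33 over all genes. There the CDK-binding subunit gene Cks1b was 2.40-fold lower and Cdk7 2.37-fold lower.

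Among the 4 other CDK inhibitors, Cdkn1c and Cdkn2b were at 1.07 CPM or less in every condition. Cdkn1a, encoding p21, was 2.25-fold higher (1.997 to 2.53) at 24 h and 2.46-fold (2.11 to 2.86) at 48 h of brequinar, and 1.08-fold (0.879 to 1.31) at 48 h of withdrawal. At 12 h of withdrawal it was also higher, at 1.60-fold (1.38 to 1.87), which made 1 of 2 measured (13.4% of all genes). Cdkn2a stood at 659 CPM at 0 h and was 1.58-fold higher (1.55 to 1.62) at 24 h of brequinar. Summed counts cannot tell its products apart. Ratios under the alternatives are given for members only. Median-of-ratios scaling moved the median log2 ratio of all genes by -0.22 at 24 h of brequinar. At 6 and 12 h of withdrawal the shifts were -0.15 and -0.096. Pathway ratios near 1.5, here and below, may thus depend on the scaling.

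Of the 8 ubiquitin ligase parts, 5 were measured at 12 h of brequinar and 1 was higher (13.5% of all genes), Fbxo4, at 2.34-fold (1.99 to 2.75). Skp2, the subunit that marks p27 for breakdown, stood at 46.6 CPM at 12 h of brequinar against 17.3 CPM at 12 h of withdrawal, 2.69-fold (2.29 to 3.18). At 48 h it was 1.80-fold lower with brequinar (1.44 to 2.26) and 3.11-fold lower with withdrawal (2.43 to 4.04). Cdkn1b RNA was highest in those 48 h cultures of each series.

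Of 11 transcription regulators of D-type cyclin and p27 genes, 6 were measured at 6 h of withdrawal, 3 higher (12.3% of all genes) and 1 lower (8.11%). Myc stood at 49.0 against 214 CPM, 4.37-fold lower (4.01 to 4.77). Foxo3, whose product activates Cdkn1b, was 1.64-fold higher (1.48 to 1.82), and the antiproliferative gene Btg1 was 2.79-fold higher (2.63 to 2.96). At 24 h of brequinar 5 of 7 were higher (29.2% of all genes; median log2 ratio 1.03, against 0.16 over all genes), among them Foxo3 at 2.18-fold (1.997 to 2.38) and Stat3 at 2.31-fold (2.12 to 2.52). Btg1 reached 484 CPM after 48 h of brequinar and 575 CPM after 48 h without estrogen, against 89.5 and 90.8 CPM at 0 h.

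The exons of 6 members overlap a gene on the opposite strand in the GENCODE annotation: Ccnd1 (LTO1), Ccnd2 (9330179D12Rik and Gm43126), Ccnd3 (Bysl), Ccne2 (Ints8), Cdk4 (Tspan31) and Cdk6 (Gm17590). Whether the counting used strand is not given in the sources used here, so some reads of such partners may be counted with these members.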

How the data were processed

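Spliced UMI counts were deposited by the authors as 1 sparse matrix for the whole pool, with a table of barcode calls and a table pairing barcodes with conditions. Per the submitters' processing notes, kallisto 0.46, bustools 0.39.4 and Cell Ranger were used. The genome build is not given in the sources used here, nor is the annotation. The 2 sequencing runs repeat 1 pool and barcodes carry no run mark, so each condition counts as 1 sample. Barcodes called doublet (17.8% of 15582 distinct barcodes) or negative were left out, and 26 negative barcodes were repeated in the table. Gene IDs were given symbols from a name table (54723 of 54838 matched), and IDs sharing a symbol were summed.

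Counts were summed per condition and scaled to CPM. CPM ratios have exact conditional binomial (Clopper-Pearson) 95% intervals, and levels exact Poisson intervals. A separate detection floor was set at 3 counts in a condition. PCR reads were collapsed to UMIs, and intervals cover counting error only. Called means at least 1.5-fold with 20 CPM in either culture, and medians use log2(CPM + 5). The ratio and its interval were run on Poisson counts simulated for brequinar 48 h against 0 h. With 5595 genes, 100% of 50 genes at 2.5-fold and 92% of 50 at 1.6-fold were called. Intervals held the true ratio for 90% to 98% of the genes at each simulated ratio. The simulation had counting error only, so it checks the computation and not the spread between cultures. Cell cycle scores used scanpy 1.11.5 on cells thinned to 2500 UMIs. Numerical work used numpy 2.4.6 and scipy 1.17.1 in python 3.11.15.

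All members are named. For each of the 9 with at least 20 CPM and a 1.5-fold range, the 3 genes with the highest correlation over 10 conditions are named, among genes at 50 CPM or more in 1 or more conditions, and up to 4 genes of each pathway list with the largest ratio in the direction described. The hexamer search was added after the promoters had been seen. Members and lists were chosen with earlier results of these data known, so their counts are no independent support. The matrix of unspliced counts was not used. The alternatives tried were another scaling by median-of-ratios size factors, scaling without mitochondrial and ribosomal protein genes, the mean of per-cell CPM, a filter on cells, removal of 5% free RNA, the other 0 h culture, class weighting, the G1-like class alone, no CPM minimum and a 2-fold threshold.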

Additional observations from a re-analysis of the deposited data

Results flagged for a closer look

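Barcodes that the authors called doublet or negative were left out of every comparison, yet several members stood above both 0 h cultures in them. In barcodes called doublet, Ccnd3 stood at 21.2 CPM, Cdkn1b at 26.7, Cdkn2c at 49.2 and Cdkn2d at 132.7. The upper interval bounds of both 0 h cultures lay under these levels. In barcodes called negative, Cdkn1b stood at 39.4 CPM, Cdkn2c at 60.4 and Cdkn2d at 175.9, on 75, 115 and 335 UMIs. These barcodes cannot be tied to a condition, and later cultures of both series also stood above 0 h for these genes.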

How the results depend on the processing

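With 1 culture per condition no replicate could be left out. No paired analysis was possible because the 2 runs repeat 1 pool and the conditions share no replicate numbers. Of the 91 ratios of measured members, 50 were called at 1.5-fold. Filtering cells on UMIs and mitochondrial share neither lost nor gained a call, and free RNA removal gained 2. Median-of-ratios scaling lost 5 and gained 8, moving the median log2 ratio of all genes by -0.22 to 0.23 in the comparisons with 0 h and by -0.34 to 0.02 between the series. Scaling without mitochondrial and ribosomal protein genes lost 3, and the mean of per-cell CPM lost 3 and gained 4. The other 0 h culture gained 2 among 60 ratios, class weighting lost 5 and gained 5, and the G1-like class alone lost 8 and gained 12. The 7 members called at 48 h of brequinar became 2 at a 2-fold threshold. The 3 called between the series at 48 h became 5 with median-of-ratios scaling, 5 with the mean of per-cell CPM and 5 with no CPM minimum. In the G1-like class alone, the 12 h brequinar increases of Ccne1 (0.857), Ccne2 (0.372) and Cdkn2c (0.991) were not seen. These 12 h ratios rest on 3 to 26 UMIs a class, too few to read a lower level from them. The 24 h ratio of Cdkn1b between the series became 0.381 in that class. With class weighting, Ccne1 at 48 h became 1.04 with brequinar and 1.38 with withdrawal. Both class alternatives fix the class makeup by construction, and the cause of the other differences was not tested. Depth limits Ccnd1 and, outside 12 h of brequinar, Ccne2.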
